A study of Mus musculus with 2 samples.

Results

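The 6 genes described here are grouped as genes of the epidermal barrier. They are the keratins Krt1, Krt77 and Krt80, the cornified envelope protein gene Scel, the envelope-like gene Lelp1, and the water and glycerol channel gene Aqp3. They were chosen by name, with earlier results of these data known. Every row of the deposited region table whose gene list holds a member's exact name was taken, which gave 5 of 364 regions, since Krt1 and Krt77 share a region. The table had itself been selected on a difference between the libraries. The direction and the size of each difference are therefore given as a description, with no test.

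5-Hydroxymethylcytosine (5-hmC), the base that TET enzymes make by oxidising 5-methylcytosine, was mapped by hMeDIP-seq, an antibody pull-down of hydroxymethylated DNA fragments that are then sequenced. The imiquimod library came from the epidermis of C57BL/6J mice, 6 weeks old, that received 3.125 mg of imiquimod daily in a 5% cream for 6 days. The Vaseline library came from mice of the same strain and age treated with the vehicle, and the table calls both libraries WT. Imiquimod activates Toll-like receptor 7 and is used on mouse skin as a model of psoriasis-like inflammation. Whether several mice were pooled into a library was not given in the sources used here. There is no replicate spread, with 1 library per condition. The epidermal sheet is a mixture of cells, so a changed share of a cell type and a changed 5-hmC level per cell cannot be told apart.

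Keratinocytes of the epidermis divide in the basal layer and differentiate as they move outwards. Suprabasal cells switch to the type II keratin Krt1 and its type I partner, and the uppermost living cells assemble the cornified envelope, a cross-linked protein shell under the plasma membrane. Scel encodes sciellin, a precursor of that envelope, and Lelp1 encodes a late cornified envelope-like proline-rich protein from the epidermal differentiation complex, a gene cluster rich in envelope genes. Krt77 is a type II keratin also known as keratin 1b, and Krt80 is a type II keratin of advanced differentiation that is found near cell junctions. Aqp3 carries water and glycerol across the keratinocyte membrane. Psoriasis-like epidermis is known for altered keratinocyte differentiation, but the assay measured a DNA base and not the RNA or protein of these genes.

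Of the 5 regions, 3 had more 5-hmC signal in the imiquimod library, at the start of Krt1 beside Krt77, in the intron of Lelp1 and upstream of Aqp3. The other 2, in introns of Krt80 and Scel, had less. Over all 364 listed regions 25.5% were higher and 74.5% lower in imiquimod. The larger of a member's tag numbers was 53.1 to 73.4, beside the 49.5 of the lowest listed region. The smallest member difference was 2.13-fold at Krt80, beside 1.9998-fold for the smallest listed. Regions under these limits are not analysed here.

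The Krt1 region is the only one of the 5 that overlaps an exon of a gene assigned to it, and the sequence behind it can be shown. It covers 589 coding bases of Krt1 exon 1, 67 bases of its 5′ untranslated part and 78 bases before the annotated start (GENCODE M21, GRCm38, the assembly of mm10). The 300 bases at the middle of the region are all coding and encode part of the glycine-rich head of keratin 1. They are printed 5′ to 3′ on the gene's strand, from chr15:101850356-101850655 (minus strand), with CpG dinucleotides, the main sites of methylation and hydroxymethylation in mammals, in capitals.

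Krt1 exon 1: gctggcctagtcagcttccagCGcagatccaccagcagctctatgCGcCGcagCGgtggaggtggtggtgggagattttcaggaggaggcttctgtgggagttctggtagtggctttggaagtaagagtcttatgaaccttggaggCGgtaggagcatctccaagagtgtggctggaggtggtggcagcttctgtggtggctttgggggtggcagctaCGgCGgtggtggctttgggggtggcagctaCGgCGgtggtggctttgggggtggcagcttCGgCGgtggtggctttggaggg

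These 300 bases hold 11 CpGs, of which 6 lie in 3 copies of the 18-base unit CGgCGgtggtggctttgg, spaced 30 bases apart near the 3′ end of the window. The unit was picked from this window, as one of its most frequent stretches of 18 bases with a CpG, a length set beforehand. It had no exact copy in the first coding exons of the 23 other type II keratin genes searched on the coding strand (exons of at least 300 bases). Picking the unit from Krt1 favours its absence elsewhere, and near copies were not searched. The search therefore says nothing of related repeats in those genes, nor whether the repeat is particular to Krt1. All 589 coding bases inside the region hold 16 CpGs, or 2.72 per 100 bases, at 57.9% G and C. The complete first coding exon of Krt1 had 2.76 CpGs per 100 bases, the 20th of 24 type II keratins, whose median was 3.60 and whose range was 1.65 to 8.17. Krt77 had 1.81 and Krt80 2.86 on the same measure. The Krt1 exon under this region is thus among the CpG-poorer of its family. The table assigns no CpG island to any of the 5 regions, as to most listed regions. Only 28 of the 364 had one, 1 of the 93 higher and 27 of the 271 lower. How the authors' alignment treated such a repeated stretch was not given in the sources used here.

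In the Krt1 region (chromosome 15, 101850138 to 101850872, region length 734 bp) the average tag pileup, the mean number of overlapping tags along the region, was 18.3 in the imiquimod library and 8.13 in the Vaseline library. The highest pileup of any window was 31 in imiquimod and 13 in Vaseline. The averages correspond to 59.98 estimated tags in imiquimod and 26.6 in Vaseline. The ratio was 2.251 (exact 95% interval 1.39 to 3.64, counting error only). Of the 5 regions, Krt1 had the greatest ratio upwards by the average and by the highest pileup, which differed 2.38-fold. The authors' peak calls, made on the same reads, list an interval here for imiquimod and none for Vaseline, as for 69 of the 93 higher regions. This is the only member region to which the table assigns a promoter, as it does for 16.1% of the 93 higher regions. Its middle lies 281 bp inside Krt1 by the deposited distance.

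Krt77 has no listed region of its own. The Krt1 region lies 7858 bp beyond the 3′ end of Krt77, which runs on the same strand, so that the values given for Krt77 are those of the Krt1 start.

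**Figure D1:**
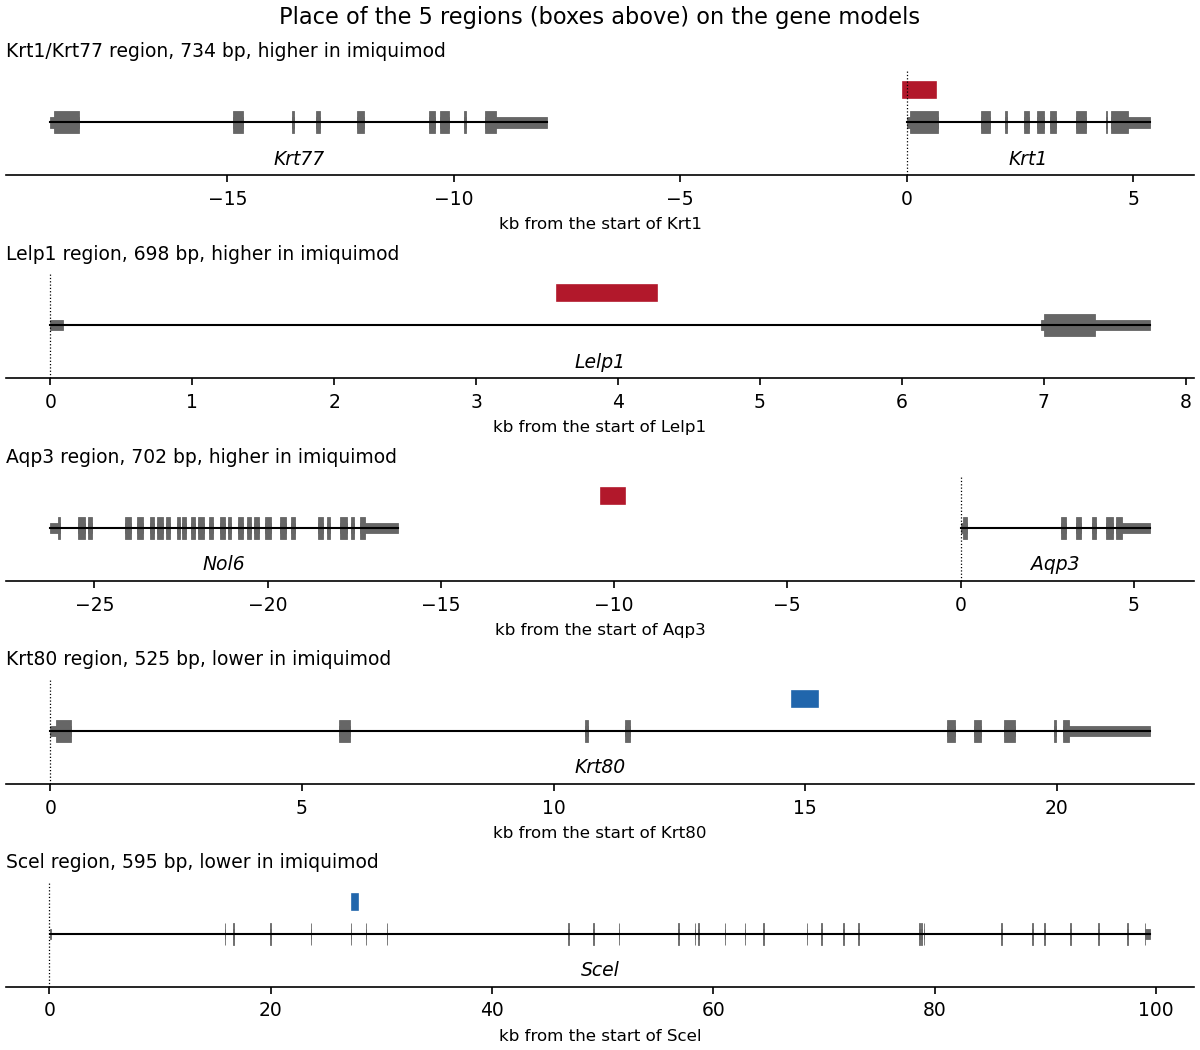
Place of the 5 regions on the gene models of GENCODE M21, each on its own horizontal axis in kb from the start of the gene named there, with genes running left to right. Grey boxes are exons (tall where coding), red boxes regions higher in imiquimod and blue boxes regions lower. The Krt1 region lies over exon 1, the Lelp1, Krt80 and Scel regions lie in introns, and the Aqp3 region lies between genes.

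The Lelp1 region (chromosome 3, 92138472 to 92139170, 698 bp) lies in the only intron of the gene, 2711 bp before the exon that carries all its coding sequence. Its average pileup was 23.6 in the imiquimod library and 10.8 in the Vaseline library, a ratio of 2.18 (1.41 to 3.33). These were 73.4 estimated tags in imiquimod and 33.7 in Vaseline, the greatest tag number of the 5 regions. The highest pileup was 35 in imiquimod and 22 in Vaseline, a difference of only 1.59-fold. By this measure Lelp1 ranked 88th of the 93 higher regions, against 34th by the average. In imiquimod the highest pileup was 1.48 times the average, below the median of 1.64 over all regions in that library. In Vaseline it was 2.03 times the average, the 17th greatest such value of the 364 regions. By this measure the pileup was flatter along the region in imiquimod than in Vaseline, as in 59 of the 93 higher regions (63.4%), Aqp3 among them. The same held for 49.1% of the 271 lower regions and 52.7% of all 364. In the higher regions Vaseline is the library with fewer tags (median 25.8, against 55.9 in imiquimod). The part of tag number in this measure was not tested. Lelp1 is also the only one of the 5 with a called interval in both libraries, which 24 of the 93 higher regions have. A long non-coding gene on the same strand, AC138676.1, spans the region.

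The Aqp3 region (chromosome 4, 41107866 to 41108568, 702 bp) lies between genes. Its middle is 10034 bp upstream of the start of Aqp3, and it is 5858 bp beyond the 3′ end of Nol6, a gene of ribosome assembly in the nucleolus, so the assignment to Aqp3 rests on distance. The average pileup was 17.6 in imiquimod and 8.09 in Vaseline, a ratio of 2.17 (1.35 to 3.68) from 55.1 and 25.4 estimated tags. The highest pileup was 29 in imiquimod and 15 in Vaseline, 1.93-fold apart. An interval had been called in imiquimod alone. By the imiquimod average, the Aqp3 and Krt1 regions were low among those of their direction. Krt1 ranked 86th and Aqp3 89th of the 93 higher regions, whose median was 22.4. Both regions were longer than the 578 bp median of these 93, and the average is taken along the length. By estimated imiquimod tags, Krt1 with 59.98 was above their median of 55.9 and Aqp3 with 55.1 just below it.

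Both lower members lie inside their genes, as do 83.0% of the 271 lower regions. The Krt80 region (chromosome 15, 101354901 to 101355426, 525 bp) is in the intron between exons 4 and 5, 3220 bp from the one and 2560 bp from the other, with its middle 14962 bp from the start by the deposited distance. Its average pileup was 10.6 in the imiquimod library and 22.7 in the Vaseline library, 2.13-fold lower (1.29 to 3.56). The highest pileup was 17 in imiquimod and 42 in Vaseline, 2.47-fold lower. That window in Vaseline was the greatest pileup of the 5 regions in either library. At 525 bp this is also the shortest of the 5, and it lies within the span of an antisense gene, Gm35853, as well.

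The Scel region (chromosome 14, 103540675 to 103541270, 595 bp) lies in a short intron of 1303 bp between exons 6 and 7 of Scel. It starts 58 bp after exon 6 and ends 650 bp before exon 7. These exons, which fix its place in a gene of 31 exons, are printed below from GENCODE M21, 5′ to 3′ on the plus strand with CpGs in capitals, from chr14:103540579-103540617 and chr14:103541921-103541998.

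Scel exon 6: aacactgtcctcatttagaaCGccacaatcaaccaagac
Scel exon 7: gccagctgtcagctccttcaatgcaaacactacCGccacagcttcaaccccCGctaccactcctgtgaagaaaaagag

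The average pileup of the Scel region was 9.06 in imiquimod and 20.0 in Vaseline, 2.21-fold lower (1.34 to 3.74), with 24.1 estimated tags in imiquimod and 53.1 in Vaseline. The highest pileup was 15 in imiquimod and 30 in Vaseline. For Scel as for Krt80 the authors' peak calls hold an interval in Vaseline alone, as they do for 253 of the 271 lower regions.

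**Figure D2:**
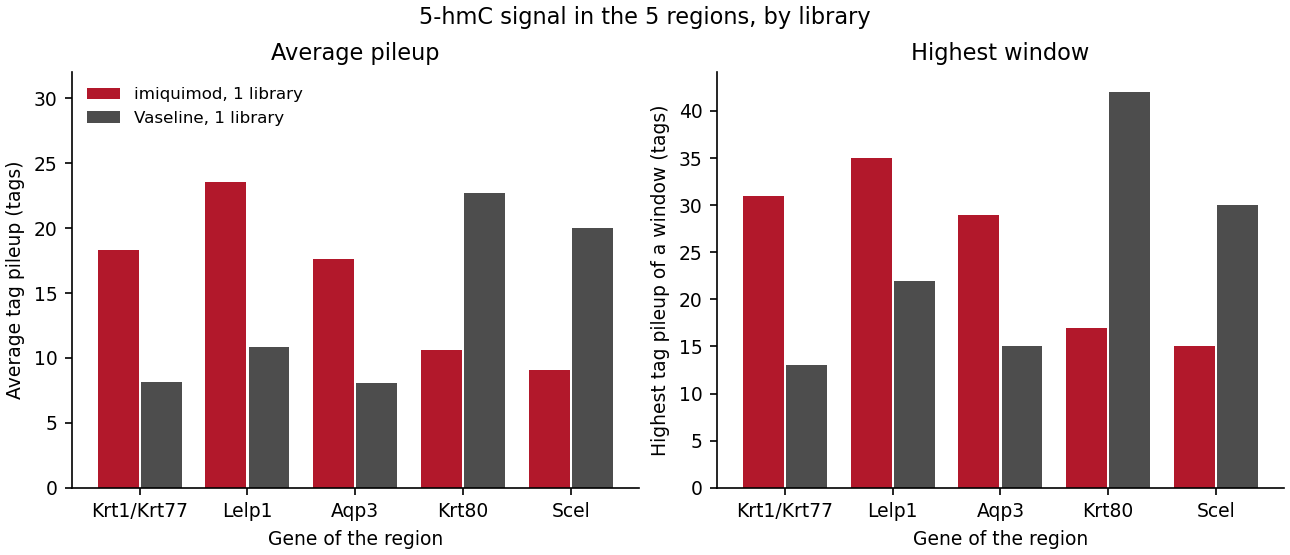
Average tag pileup (left) and highest tag pileup of a window (right) in the 5 regions, with 1 bar per library, imiquimod left of Vaseline. The average was 17.6 to 23.6 in imiquimod at Krt1/Krt77, Lelp1 and Aqp3, and 9.06 and 10.6 at Scel and Krt80.

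Set side by side, the members mirror each other in level. In the imiquimod library the averages of the 3 higher regions were 17.6 to 23.6 and those of the 2 lower regions 9.06 and 10.6. In the Vaseline library the 3 higher regions had averages of 8.09 to 10.8 and the 2 lower regions 20.0 and 22.7. The selection on a difference of about 2-fold fixes this shape. Within each direction the members cannot be ordered, since the intervals of all 3 higher ratios overlap, and so do those of the 2 lower ones. By the highest pileup, Krt1, Krt80 and Scel differed by 2-fold or more and Lelp1 and Aqp3 by less. Over the 364 regions, 16.8% were at least 2-fold higher and 55.2% at least 2-fold lower by that measure.

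**Figure D3:**
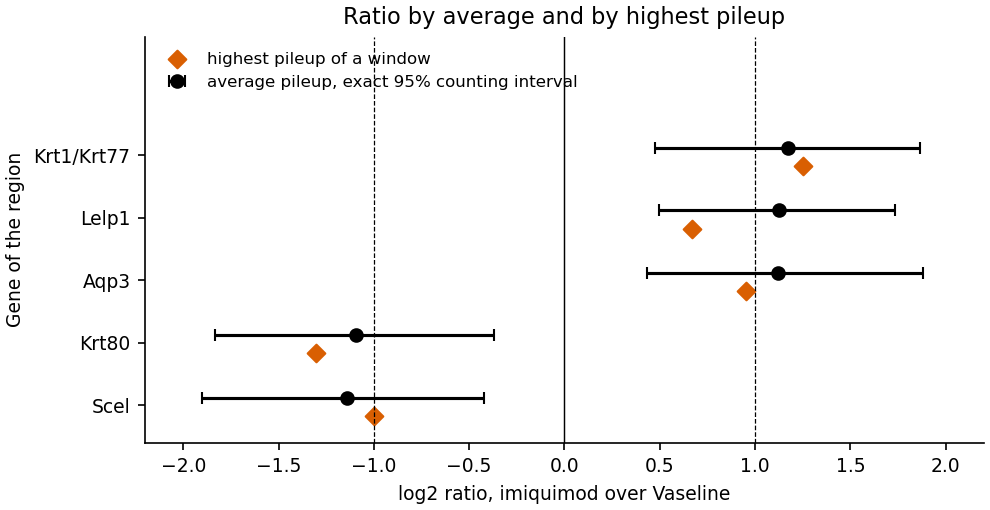
The log2 ratio of imiquimod over Vaseline in the 5 regions, by average pileup (black, with the exact 95% counting interval) and by highest pileup (orange diamonds). Dashed lines mark 2-fold. The Lelp1 ratio was 1.12 by the average and 0.67 by the highest pileup.

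All 5 differences lie near the 2-fold limit and depend on how the libraries were scaled, and that scaling was not given in the sources used here. Imiquimod values raised by a factor of 1.07 would bring Krt80 to 2-fold and by 1.10 Scel, while imiquimod values lowered by a factor of 1.13 would do so for Krt1 and by 1.09 for Lelp1 and Aqp3. With the sums of the averages over all listed regions made equal, a factor of 1.40, which raises imiquimod values only and rests on regions listed for a difference, the log2 ratios were -0.60 at Krt80 and -0.65 at Scel, and 1.66 at Krt1, 1.61 at Lelp1 and 1.61 at Aqp3.

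**Figure D4:**
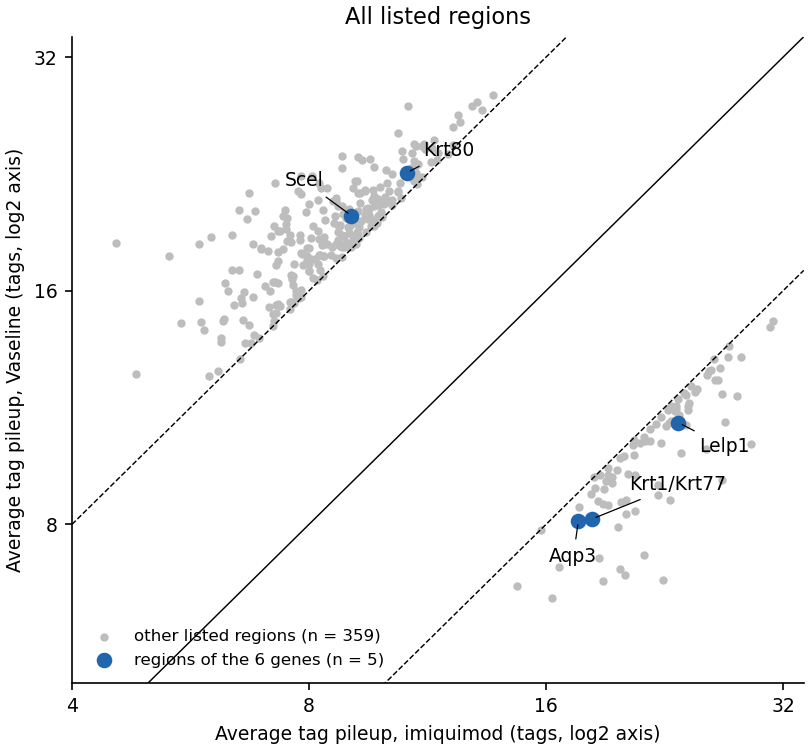
Average tag pileup of all 364 listed regions in imiquimod (horizontal, log2 axis) and Vaseline (vertical, log2 axis), with 1 point per region and the 5 regions of the barrier genes in blue. The solid line marks equal values and dashed lines 2-fold, between which no region is listed by more than rounding. Krt80 and Scel lie among the lower regions, and Aqp3 and Krt1/Krt77 at the low end of the higher regions by average pileup, though not by tag number.

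For each member region, the other listed region with a gene and the nearest pair of averages was found, by distance over the 2 libraries on the log2 scale. For the Krt1 region it was the Aqp3 region, at a distance of 0.06. For Aqp3 it was a region in Dnahc3, with averages of 17.6 in imiquimod and 8.42 in Vaseline. For Lelp1 it was a region in the cadherin gene Cdh13, with 23.7 in imiquimod and 10.75 in Vaseline. For Krt80 it was a region shared by 3110082I17Rik and Gpr146, with 10.7 in imiquimod and 22.8 in Vaseline, and for Scel a region in Sipa1l3, with 9.06 in imiquimod and 19.8 in Vaseline.

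The members were then placed among their families. Of 53 protein-coding keratin genes in the annotation, 2 had a higher region, Krt1 and Krt77 through the same region, and 1 a lower region, Krt80. None of the 57 keratin-associated protein genes had a listed region. Among 86 cornified envelope and epidermal differentiation complex genes, 1 had a higher region, Lelp1, and 2 a lower region, Scel and S100a2. Of 12 aquaporin genes only Aqp3 had one. Of all 21924 protein-coding genes, 0.233% had a higher and 1.35% a lower listed region. The members were picked because they have one, so only the counts without them bear on the families: 0 of 50 other keratin genes, 1 of 84 other envelope genes and 0 of 11 other aquaporin genes.

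S100a2, an S100 calcium-binding protein gene, is that 1 envelope list gene. Its region (chromosome 3, 90589449 to 90590005) has its middle 520 bp upstream of the start. The average pileup was 8.71 in imiquimod and 20.6 in Vaseline, 2.36-fold lower (1.38 to 4.01), and the highest pileup was 12 in imiquimod and 33 in Vaseline. S100a2 and Lelp1 thus went opposite ways on the same chromosome, 1.548 Mb apart. Of 38 regulators of keratinocyte differentiation, only Notch1 had a listed region, lower with 9.33 in imiquimod and 23.6 in Vaseline.

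Krt80 and Krt1 also went opposite ways within the type II keratin cluster of chromosome 15. Of all 364 listed regions 25.5% were higher and 74.5% lower, so both directions occur widely in the table. The Krt80 and Krt1 regions are 494.7 kb apart. Between them lie 17 other keratin genes, among them Krt5 of basal cells and the stress-associated Krt6a and Krt6b. The authors numbered regions merged over 4 libraries, not only the 2 used here, along each chromosome. Between the Krt80 and the Krt1 region fall 100 numbers, 202.1 per Mb, against 67.9 per Mb between listed regions of the genome. None of these 100 has values in the table, so how many hold an interval of the 2 libraries is not known. Beyond Krt1 the next listed region with a gene is at Amhr2 and Prr13 (8.55 in imiquimod and 17.8 in Vaseline), with 94 numbers without values between, 156.3 per Mb, and before Krt80 it is in Bin2 (8.65 in imiquimod and 18.4 in Vaseline), with 147, or 209.3 per Mb.

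In the epidermal differentiation complex numbered regions were sparser than in the keratin cluster. Between listed regions of the genome there were 67.9 per Mb. Between S100a2 and Lelp1 there were 48 numbers, 31.0 per Mb, over 8 genes of the envelope list, loricrin (Lor) included. Between Lelp1 and Tdpoz3, the next listed gene, there were 102, 60.7 per Mb, over 48 genes of the list, among them Ivl, Flg and the Sprr and Lce families. None of these numbers has values in the table, so the 5-hmC level at them is not known. The table lists regions of about 2-fold and at least 49.5 tags, and which limit an unlisted region missed cannot be told.

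Scel had its nearest listed gene on one side alone, an intron region of Tbc1d4 2.033 Mb away (8.36 in imiquimod and 17.7 in Vaseline). Around Aqp3 the nearest listed genes were far, Rbm12b1 at 28.972 Mb (26.8 in imiquimod and 11.8 in Vaseline) and the region of Bspry, Hdhd3 and Alad at 21.391 Mb (9.44 in imiquimod and 20.4 in Vaseline). Of 22 marker genes of keratinocytes, T cells, myeloid and Langerhans cells, melanocytes, fibroblasts and endothelium, only Krt1 had a listed region. Krt1 is a member and was picked because it has one. Over all protein-coding genes 0.233% had a higher and 1.35% a lower listed region. The assay gives no expression with which to check the labelled tissue, and the part of cell mixture in these differences was not tested.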

How the data were processed

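Epidermal DNA from 1 imiquimod and 1 Vaseline sample was profiled by hMeDIP-seq. The submitters' processing notes name CASAVA, MACS2 and mm10 and no versions. Aligner, duplicate handling and library scaling were not given in the sources used here. Intervals of 4 libraries were merged by the authors into numbered regions, per the file headers. The 6 value columns of the other libraries, which are not samples of this series, were not used. The columns' words control and treated are the sole link to the Vaseline and imiquimod samples, so all directions depend on them.

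The signal values deposited by the authors are average and highest tag pileups, a coverage. The authors' deposited tag score equals the larger average times length over 224 in all 364 regions (tolerance 1e-06), so tags per library were computed that way. The log2 ratios deposited by the authors equal those of the averages. Numbers of promoters, CpG islands and called intervals were used as deposited. Total library depth is unknown.

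Ratios carry Clopper-Pearson 95% intervals of the imiquimod share of the rounded tags. These cover counting error only, since each condition has 1 library and no spread between libraries was measured. They were checked on simulated tag numbers that were not selected on a difference, so that check does not cover the listed regions. As the regions were listed for a difference of about 2-fold, an interval that leaves out 1 is no support for it. Starts may count from 0. Placement used GENCODE M21 (GRCm38) and the sequences its transcripts. Named were the members, genes sharing their regions, list genes with a listed region, chromosomal neighbours and the likest region. The members and lists were chosen with earlier results of these data known. Alternatives were the highest pileup, equal sums, a pseudocount of 1, and limits of 2.5-fold, 60 tags and position inside the gene. Python 3.11.15, numpy 2.4.6, pandas 2.3.3, SciPy 1.17.1 and matplotlib 3.10.9 were used.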

Additional observations from a re-analysis of the deposited data

How the results depend on the processing

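The 5 member log2 ratios stayed within their counting intervals and kept their sign with the highest pileup, with equal sums and with a pseudocount of 1. Equal sums and the pseudocount could not have turned a sign at these sizes. A minimum of 2.5-fold left 0 higher and 0 lower member regions, and so 0 keratin, 0 envelope and 0 aquaporin genes in either direction, while Notch1 remained. The highest pileup at 2-fold left 1 of the 3 higher regions, Krt1, and both lower ones. Equal sums left all 3 higher and 0 lower regions at 2-fold. A minimum of 60 tags left 1 higher region, Lelp1, and 0 lower ones. With regions inside the gene only, 1 keratin gene stayed higher and 1 lower. Under the same limit 1 envelope gene stayed higher and 1 lower, and 0 aquaporin genes stayed higher. With 24.1 to 73.4 tags per region and library, the interval of a fold began at 1.29 to 1.41 and ended at 3.33 to 3.74. No paired analysis was possible because each condition has 1 library, and leaving out a replicate was not possible for the same reason.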
